A study of Brachypodium distachyon with 4 samples.

Results

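Pseudo-response regulators are clock proteins that repress transcription in turn over the day, and the transcripts of 4 of them were measured in leaves of the grass Brachypodium distachyon. The genes were taken by locus identifier, and all 4 were found among the 35125 identifiers of the count table. They are PPD1 (BRADI_1g16490v3, also called PRR37), PRR73 (BRADI_1g65910v3), PRR95 (BRADI_4g36077v3) and TOC1 (BRADI_3g48880v3). By their identifiers PPD1 and PRR73 lie on chromosome 1, TOC1 on chromosome 3 and PRR95 on chromosome 4. The names are published assignments that the table does not state.

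RNA-seq libraries were made from the wild-type inbred line Bd21-3 and from the mutant jmj1-1 in the same background, with 2 libraries of each. JMJ names denote histone demethylases with a JmjC domain, and the labels give neither the locus nor the lesion of jmj1-1. All plants were leaf samples taken on day 17 at leaf stage 4, under a cycle of 20 h light followed by 4 h darkness, at 10 h after lights on. Whether the 2 libraries of a line stand for separate plants is not stated in the labels, and the p-values below therefore rest on a spread that may be technical. The mutant's own transcript could not check the labels, and no leaf markers were analysed here.

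A pseudo-response regulator resembles the receiver of a bacterial-type phosphorelay but lacks the residue that accepts the phosphate, and it carries a CCT domain near its end. In Arabidopsis the family is expressed in waves from morning to evening, ends with TOC1, and holds down the morning MYB genes of the clock, CCA1 and LHY. In wheat and barley PPD1 is the main photoperiod gene, which promotes flowering in long days through FT1, the florigen gene. PRR73 is the close relative of PPD1 in grasses, and PRR95 belongs to the branch of Arabidopsis PRR9 and PRR5. Since every plant was collected at 1 hour of the day, the values are levels at that hour and hold no rhythm.

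The members parted. PPD1 was lower and PRR95 was higher in jmj1-1 by about the same factor, and PRR73 and TOC1 did not pass the test. The factors were 1.3 for PPD1 and 1.29 for PRR95, near the median of 1.26 over all called genes. Of all tested genes, 84.4% had a smaller absolute log2 change than PPD1 and 83.8% a smaller one than PRR95. Of the 4 members 2 passed, while 13.9% of all tested genes did (2978 of 21456). The members were chosen with earlier results of these data known. In bulk tissue, less RNA per cell and fewer cells that make it cannot be told apart. Higher genes made up 6.13% and lower genes 7.75% of those tested. Of all calls 44.2% were higher in jmj1-1 with TMM scaling, 64.1% with library totals alone and 28.1% with TMM factors squared. Among genes within 2-fold of the mean level of each member the share called was 20.1% for PPD1, 33.6% for PRR73, 20.0% for PRR95 and 22.7% for TOC1.

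PPD1 was read 1012 and 964 times in the Bd21-3 libraries and 794 and 655 times in the jmj1-1 libraries. Scaled by library size to CPM, the usual unit of scaled counts, these were 62.5 and 60.9 CPM in Bd21-3 and 48.7 and 46.4 CPM in jmj1-1. Both mutant libraries lay below both wild-type libraries. Such separation of the genotypes occurred at 50.9% of all tested genes. Mean levels of 61.7 ± 1.13 CPM (wild type) and 47.5 ± 1.64 CPM (mutant) (SD, n = 2 each) show that PPD1 fell by 23.0%. The log2 change was -0.38 (95% interval -0.50 to -0.25, SE 0.064, adjusted p = 8.87e-06 in edgeR's quasi-likelihood test). Replicates differed by 0.037 on the log2 scale in Bd21-3 and by 0.070 in jmj1-1, where counting error alone gives SDs of 0.065 and 0.076 for these gaps. The 4 comparisons of a single mutant with a single wild-type library gave log2 differences of CPM between -0.43 and -0.32.

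PRR95 moved the other way. Its reads were 727 and 783 in Bd21-3 and 1045 and 809 in jmj1-1, or 44.9 and 49.5 CPM against 64.1 and 57.3 CPM. The jmj1-1 libraries were both above the Bd21-3 libraries, with replicate 1 the higher of the mutant pair and the lower of the wild-type pair. The mean rose from 47.2 ± 3.23 to 60.7 ± 4.81 CPM (SD, n = 2 each), which is 28.6% above the wild type. The log2 change was 0.37 (95% interval 0.23 to 0.50, SE 0.067, adjusted p = 3.15e-05 in edgeR's quasi-likelihood test). Of the 4 members PRR95 varied most between replicates, by 0.14 and 0.16 on the log2 scale, above the counting SDs of 0.074 and 0.068. Single mutant libraries exceeded single wild-type libraries by 0.21 to 0.51 on that scale, so the smallest of these differences was still larger than the gap within either genotype.

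PRR73, the close relative of PPD1, had the most reads of the members. It was counted 2711 and 2606 times in Bd21-3 and 2580 and 2330 times in jmj1-1, or 167.5 and 164.7 CPM against 158.2 and 164.9 CPM. The genotypes overlapped, since jmj1-1 replicate 2 lay between the wild-type libraries. The means were 166.1 ± 1.98 and 161.6 ± 4.77 CPM (SD, n = 2 each). The log2 change of -0.04 did not pass the test (SE 0.047, adjusted p = 0.673 in edgeR's quasi-likelihood test), and it turned to 0.014 with library totals alone. Its 95% interval ran from -0.13 to 0.053, or from 0.912 to 1.04 times the wild-type level, so a fall as large as that of PPD1 lay outside it.

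TOC1, the evening member, was counted 1142 and 1041 times in Bd21-3 and 1046 and 903 times in jmj1-1. The levels were 70.6 and 65.8 CPM in the wild type and 64.1 and 63.9 CPM in the mutant. Both mutant libraries were below both wild-type libraries, but the nearest pair was only 0.037 apart on the log2 scale, while the wild-type libraries were 0.10 apart. The means were 68.2 ± 3.37 and 64.0 ± 0.149 CPM (SD, n = 2 each). The mutant libraries were only 0.0048 apart on the log2 scale, where counting error alone gives an SD of 0.0655 for this gap. The small SD of the mutant therefore understates the error of its mean. The log2 change was -0.09 (95% interval -0.21 to 0.030, SE 0.060) and did not pass (adjusted p = 0.387 in edgeR's quasi-likelihood test). The interval corresponds to 0.864 to 1.02 times the wild-type level.

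**Figure D1:**
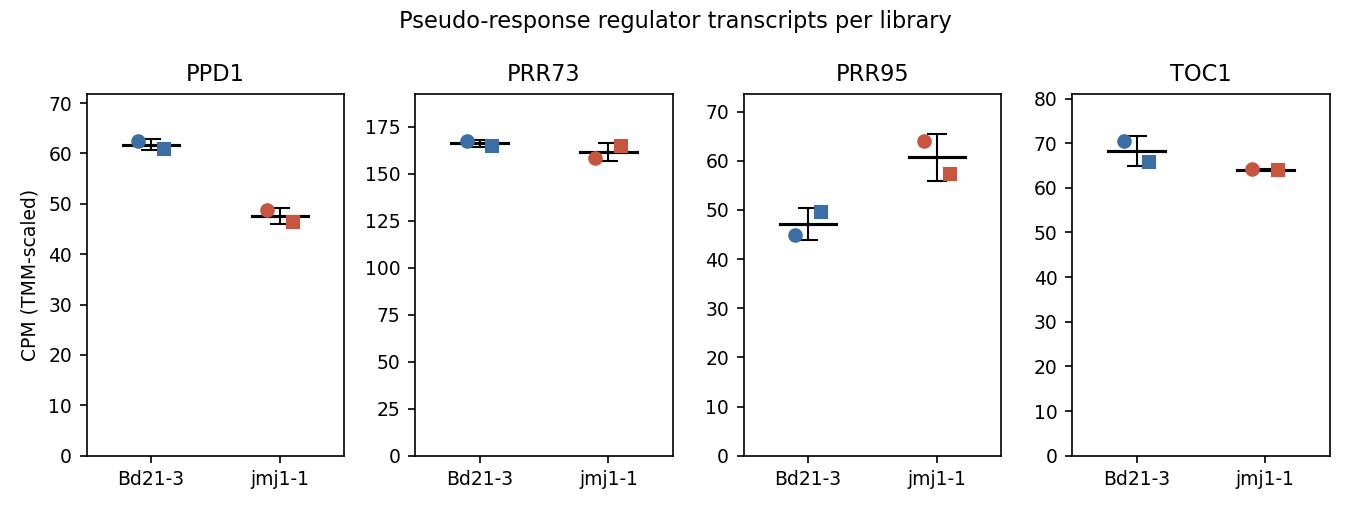
Level of each member in CPM (TMM-scaled, axes from 0) in the libraries of Bd21-3 (blue) and jmj1-1 (red), with circles for replicate 1, squares for replicate 2, a bar at the mean and whiskers of 1 SD. The PPD1 points fall from 62.5 and 60.9 to 48.7 and 46.4 CPM, the PRR95 points rise from 44.9 and 49.5 to 64.1 and 57.3 CPM, and the PRR73 genotypes overlap.

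The summed level of the members differed little between genotypes, and its make-up differed more. The sum was 345.4 and 340.8 CPM in the Bd21-3 libraries and 335.1 and 332.5 CPM in the jmj1-1 libraries. With TMM scaling the sum was lower in both mutant libraries, at 333.8 ± 1.82 against 343.1 ± 3.25 CPM (SD, n = 2 each, two-sided exact permutation p = 0.333, the smallest that 2 against 2 libraries can give). As a share of library totals, without TMM, the members made up 0.0338% and 0.0334% in Bd21-3 and 0.034% and 0.034% in jmj1-1. The direction of this small difference therefore depended on the scaling. PPD1 took 18.1% and 17.9% of the members' reads in Bd21-3 and 14.5% and 13.9% in jmj1-1. The 95% Wilson intervals, which cover counting error only, were 17.1 to 19.1% and 16.9 to 18.9% in the wild type, and 13.6 to 15.5% and 13.0 to 15.0% in the mutant. PRR95 took 13.0% and 14.5% in Bd21-3, with intervals of 12.1 to 13.9% and 13.6 to 15.5%. In jmj1-1 it took 19.1% and 17.2%, with intervals of 18.1 to 20.2% and 16.2 to 18.3%. For both genes the intervals of the genotypes were apart. PRR73 held 47.2% to 49.6% and TOC1 19.1% to 20.4% in all libraries, and their intervals overlapped between genotypes. Reads were not divided by transcript length here, so these shares show how the balance differed between libraries and not which gene is more abundant.

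Ratios of reads inside a library do not depend on the scaling between libraries, and 6 pairs of members were compared this way. The ratio of PPD1 to PRR95 was 1.39 and 1.23 in Bd21-3 and 0.760 and 0.810 in jmj1-1. This was the widest shift of the 6 pairs, a log2 difference of -0.74 or a factor of 1.67. PPD1 also fell against its close relative, with PPD1 to PRR73 ratios of 0.373 and 0.370 in the wild type and 0.308 and 0.281 in the mutant. That log2 difference was -0.34, beside gaps between replicates of 0.013 and 0.13. The ratio of PPD1 to TOC1 shifted by -0.29 and that of PRR73 to PRR95 by -0.40. PRR95 rose against TOC1 by 0.45, from 0.637 and 0.752 to 0.999 and 0.896. In these 5 pairs the genotypes did not overlap and the shift was larger than either replicate gap. In the sixth pair, PRR73 to TOC1, they overlapped, at 2.37 and 2.50 against 2.47 and 2.58. The pairs share members and are not independent. Each of the 5 pairs holds PPD1 or PRR95, so their shifts mostly restate the changes of those genes. The number of shifted pairs is therefore not added evidence. Among single tested genes, 50.9% did not overlap between genotypes in CPM. The two-sided exact permutation p was 0.333 for each of the 5 pairs and 0.667 for the sixth (0.400 and 0.667 adjusted over the 6 pairs), and 0.333 is the smallest this design allows, so no pair could pass 0.05.

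**Figure D2:**
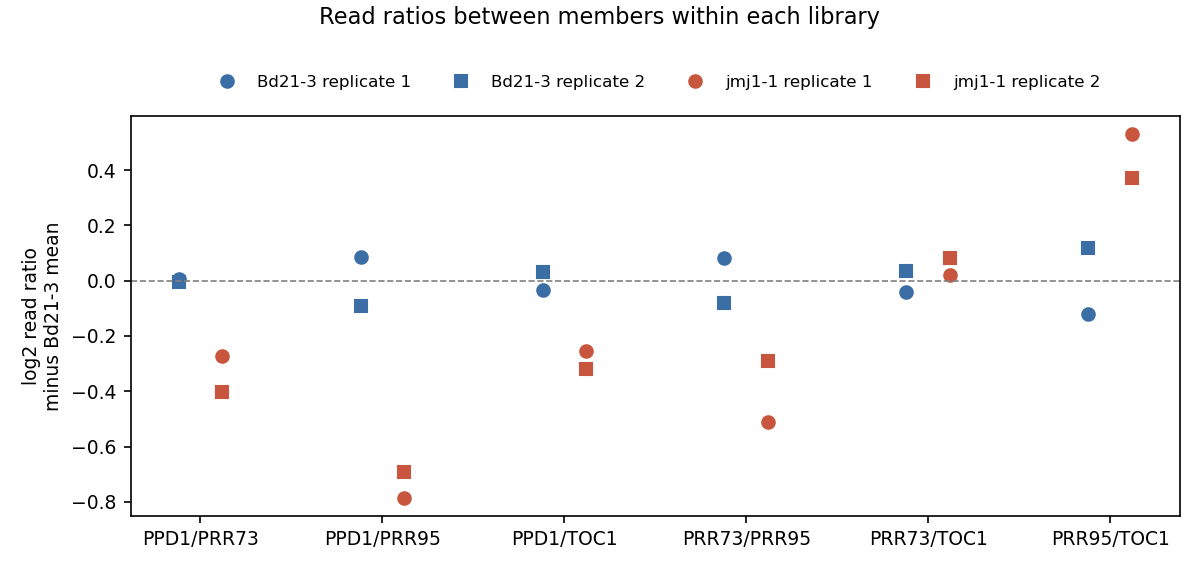
The log2 ratio of reads between 2 members within each library, minus the mean of that ratio in Bd21-3, for the 6 pairs, with blue for Bd21-3, red for jmj1-1, circles for replicate 1 and squares for replicate 2. The jmj1-1 points lie off the Bd21-3 points in 5 pairs, farthest for PPD1/PRR95 (mean -0.74), and overlap them for PRR73/TOC1.

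The changes of PPD1 and PRR95 stayed past the threshold under all 16 other settings tried. For PPD1 the log2 change ranged from -0.43 to -0.32 and the adjusted p from 6.05e-07 to 0.00481. For PRR95 the log2 change ranged from 0.28 to 0.44 and the adjusted p from 3.80e-07 to 0.023, the latter without jmj1-1 replicate 1. Neither PRR73 nor TOC1 passed in any of them, with lowest adjusted p-values of 0.195 and 0.105, both with TMM factors squared. TOC1 kept its sign, between -0.14 and -0.037.

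**Figure D3:**
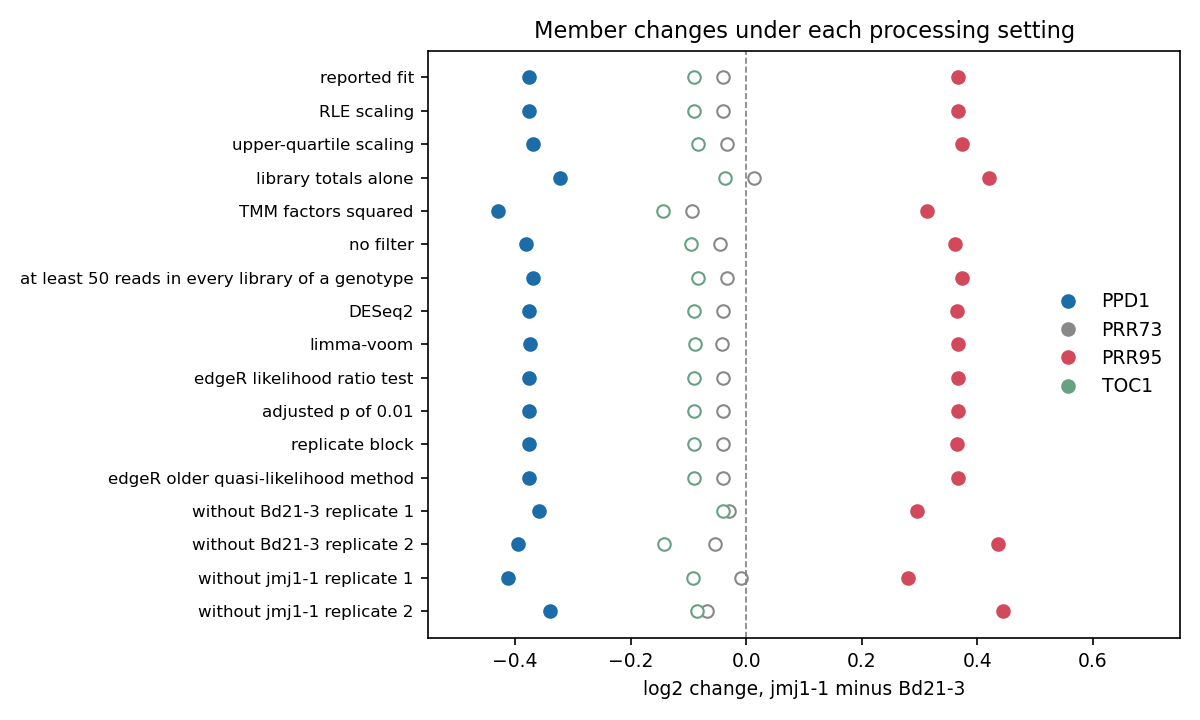
The log2 change of each member (horizontal axis, jmj1-1 minus Bd21-3) in the reported fit and under 16 other settings (rows), with filled points past the threshold of that row and open points not. PPD1 stays between -0.43 and -0.32 and PRR95 between 0.28 and 0.44, all filled, while all PRR73 and TOC1 points are open and 1 PRR73 point lies above 0.

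Of the 4 other clock genes, 1 was higher, 1 was lower and 2 did not pass the test, beside 13.9% called over all tested genes (median log2 change -0.11, against 0.0033 over all tested genes). The 2 that passed lay above 99.1% and 97.9% of tested genes in mean level. Among genes within 2-fold of the mean level of PRR73, which was lower than theirs, 33.6% were called. This list was chosen with earlier results of these data known. LHY (BRADI_3g16515v3), the morning MYB gene that pseudo-response regulators repress in Arabidopsis, was at 571.4 and 575.1 CPM in Bd21-3 and 437.3 and 443.2 CPM in jmj1-1. Its log2 change of -0.38 (SE 0.038) was next to that of PPD1. Inside the libraries the ratio of PPD1 to LHY was 0.109 and 0.106 in the wild type and 0.111 and 0.105 in the mutant, a log2 shift of 0.0037 with overlapping genotypes. GI (BRADI_2g05226v3), which encodes GIGANTEA, a protein of clock output, was at 241.3 and 252.7 CPM against 300.1 and 296.8 CPM, a log2 change of 0.27 (SE 0.042). The PRR95 to GI ratio overlapped too, at 0.186 and 0.196 in Bd21-3 and 0.213 and 0.193 in jmj1-1. The crossed ratios shifted most, by 0.74 for PRR95 to LHY and by -0.65 for PPD1 to GI, with no overlap between genotypes. Like the ratios between members, these ratios of PPD1 and PRR95 mostly restate the changes of the single genes and are not added evidence. The ratios of PRR73 and TOC1 to LHY and to GI did not overlap between genotypes, with log2 shifts of 0.34 and 0.29 against LHY and of -0.31 and -0.36 against GI. Since PRR73 and TOC1 did not pass the test themselves, these shifts mostly restate the changes of LHY and GI. Among single tested genes, 50.9% did not overlap between genotypes in CPM. ELF3 and LUX, genes of the evening complex, had log2 changes of -0.07 (adjusted p = 0.466) and -0.15 (adjusted p = 0.215) and did not pass edgeR's test.

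Likeness of pattern was measured as the distance over the 4 libraries between log2(CPM + 1) values, each gene centred on its own mean. Among the 13 tested genes of the clock and flowering lists, LHY was nearest to PPD1 (distance 0.071), GI was nearest to PRR95 (0.14), and ELF3 was nearest to both PRR73 (0.092) and TOC1 (0.11). Among all tested genes within 2-fold of its mean level, the nearest to PPD1 was BRADI_1g09940v3, at 114.4 and 111.8 CPM in Bd21-3 and 89.5 and 84.8 CPM in jmj1-1 (distance 0.0067). The nearest to PRR95 was BRADI_5g16557v3, at 24.5 and 26.2 against 33.7 and 30.4 CPM (distance 0.045). What these loci encode is not in the files used here. Within a distance of 0.1 lay 101 of 5324 such genes for PPD1, 18 of 5348 for PRR95, 614 of 1907 for PRR73 and 766 of 4642 for TOC1.

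Downstream of PPD1 in the photoperiod pathway of temperate cereals, FT1 (BRADI_1g48830v3) was nearly absent from the mutant, with 163 and 150 reads in Bd21-3 and 2 and 2 in jmj1-1. PPD1 itself had 1012 and 964 reads in Bd21-3 and 794 and 655 in jmj1-1, a log2 change of -0.38. Whether the changes of PPD1 and FT1 are linked was not tested. Of 11 flowering and photoperiod loci, 10 were in the table and 9 were tested, with 4 lower, 0 higher and 5 short of the threshold (median log2 change -0.36, against 0.0033 over all tested genes). Over all tested genes 7.75% were lower and 6.13% higher, but the list was chosen with earlier results of these data known. The lower genes were FT1, its relative FT2, and the MADS-box genes VRN1 and FUL2, which promote flowering. VRN1 (BRADI_1g08340v3) went from 204 and 192 reads to 1 and 1, FUL2 (BRADI_1g59250v3) from 93 and 74 to 2 and 1, and FT2 (BRADI_2g07070v3) from 18 and 18 to 1 and 0. These falls were far larger than any change among the pseudo-response regulators. CO1 and CO2, CONSTANS-like genes that share the CCT domain with the pseudo-response regulators, were at log2 changes of -0.36 (SE 0.14) and 0.42 (SE 0.27), which missed the threshold at adjusted p = 0.075 and 0.374 in edgeR's test. The floral repressor VRN2, also a CCT-domain gene, was at 0.27 (SE 0.26, adjusted p = 0.590). The phytochrome genes PHYC and PHYB, whose products are light receptors, were at -0.13 (adjusted p = 0.083) and 0.017 (adjusted p = 0.919). FTL9, an FT-like gene, had 2 to 7 reads per library and was not tested.

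**Figure D4:**
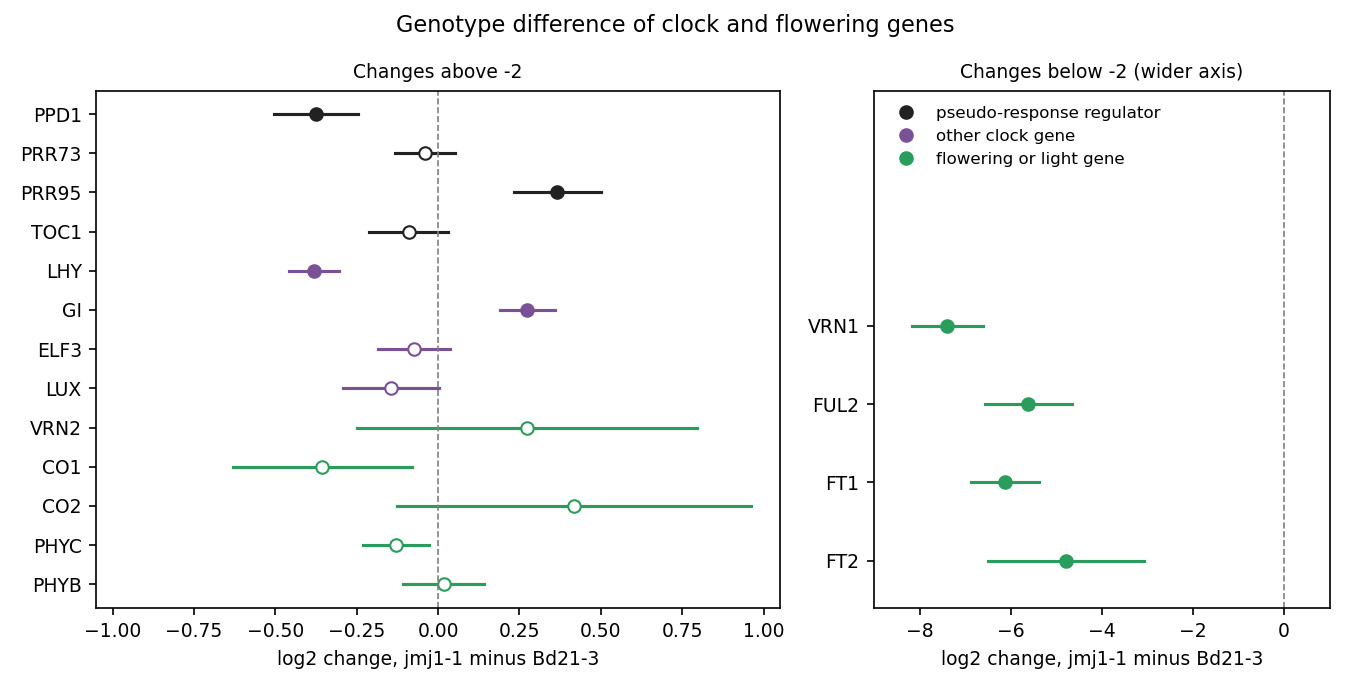
The log2 change (jmj1-1 minus Bd21-3) with its 95% interval for the pseudo-response regulators (black), other clock genes (purple) and flowering or light genes (green), with filled points for adjusted p under 0.05 and a wider axis on the right for changes below -2. PPD1 (-0.38) sits level with LHY (-0.38), PRR95 (0.37) lies near GI (0.27), and VRN1, FUL2, FT1 and FT2 lie far below all of them.

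The loci around the members were examined to see whether a wider stretch of chromosome differed. Of the 40 tested loci within 5 positions of a member by locus number, 5 were higher, 3 were lower and 32 did not pass, beside the 13.9% called over all genes. Under other settings the number that passed fell as low as 3 of these loci in DESeq2 and 4 without the filter. Between 5 and 7 of them passed when 1 library was left out, with 5 without Bd21-3 replicate 1, jmj1-1 replicate 1 or jmj1-1 replicate 2. Around PPD1 only 1 of 10 passed, lower by 0.18 on the log2 scale (-0.18), and the 10 ran from -0.18 to 0.14. Farther out, the eighth tested locus on the higher-numbered side of PPD1 fell by 0.62 on the log2 scale (adjusted p = 2.07e-17 in edgeR's test), from 4152 and 3937 reads to 2745 and 2280. This was a larger change than that of PPD1. Changes of that size also lay near PRR73, which did not pass. On its lower-numbered side BRADI_1g65820v3 rose by 0.66 and BRADI_1g65841v3 fell by 0.61 on the log2 scale (adjusted p = 3.90e-18 and 0.00727 in edgeR's test). Within 10 positions of any member, 12 of 80 tested loci passed, 6 higher and 6 lower. Around PRR95, 1 of 10 was higher and 1 lower, and neither of the 2 directly adjacent loci passed (-0.59 and 0.073). Next to PRR73, whose own level did not pass, BRADI_1g65900v3 fell by 0.32 on the log2 scale (SE 0.044, adjusted p = 9.20e-08 in edgeR's test), from 3867 and 3746 reads to 3172 and 2650. Next to TOC1, BRADI_3g48875v3 rose from 1 and 6 reads to 13 and 22 (adjusted p = 0.00307 in edgeR's test), and 3 of the 10 loci around TOC1 were higher. No source used here gives the strand setting of the counting, and reads of overlapping or antisense neighbours cannot be told apart.

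**Figure D5:**
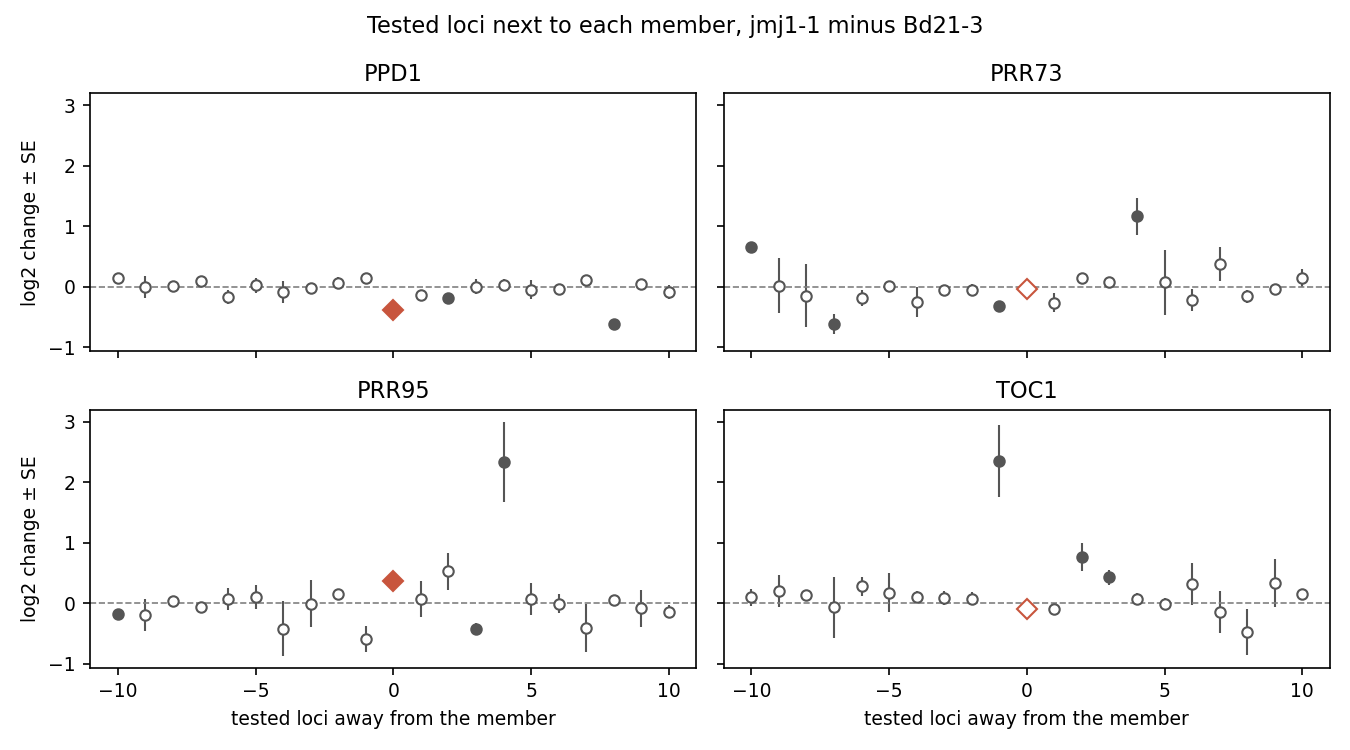
The log2 change (jmj1-1 minus Bd21-3, whiskers of 1 SE) of the 10 tested loci on each side of a member, by their rank in locus number, with the member in red at 0 and filled points for adjusted p under 0.05. The loci within 5 positions of PPD1 lie between -0.18 and 0.14, above PPD1 at -0.38, and the locus 8 positions to its right lies at -0.62. The locus 10 positions to the left of PRR73 lies at 0.66, and the highest point near TOC1 is the adjacent locus with 1 to 22 reads.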

How the data were processed

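Leaf RNA of 2 Bd21-3 and 2 jmj1-1 libraries was sequenced from libraries of a stranded kit for mRNA, according to the labels. The authors deposited raw read counts by gene and library, per the file headers. Cutadapt, HISAT2, SAMtools and featureCounts are named in the submitters' processing notes. No source used here gives the genome build, annotation, strand setting or handling of multi-mapping reads, and reads of close relatives such as PPD1 and PRR73 may have been shared or lost. Totals ran from 13825916 to 16520046 reads per library. The RefSeq gene table (Brachypodium_distachyon_v3.0) matched 0 identifiers, so no length, coordinate or sequence was used.

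Groups and replicate numbers came from the titles. Counts were fitted in R 4.3.3 with edgeR 4.0.16 (filterByExpr, TMM, two-sided quasi-likelihood F-test), and p-values were adjusted by Benjamini-Hochberg over the 21456 tested genes, with calls at 0.05. CPM used TMM-scaled library sizes. SEs are the absolute log2 change divided by the square root of F, and intervals use the fit's degrees of freedom. The fit was tested on simulated data. Alternatives used other scalings and filters, DESeq2 1.42.0, limma-voom 3.58.1, likelihood ratio and older quasi-likelihood tests, a replicate block and each library left out. Named were the members, 2 gene lists by locus, and for each called member the gene nearest in pattern. The 2 loci named beside PRR73 and TOC1, the locus described near PPD1, and the loci named farther out from PRR73 were chosen after their values were seen. Members and lists were chosen with earlier results of these data known. ODDSOC2 was listed under a locus that the table does not hold and is not analysed here.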

Additional observations from a re-analysis of the deposited data

How the results depend on the processing

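PPD1 and PRR95 kept direction and call, and PRR73 and TOC1 stayed uncalled, under every scaling, filter, tool and left-out library tried. PRR73 alone changed sign, to 0.014 with library totals alone. Over all genes 2978 were called (1315 higher, 1663 lower). Library totals alone gave 2043 higher. No filter gave 1788 (746 higher, 1042 lower), DESeq2 1283 (515 and 768), and an adjusted p of 0.01 gave 1954 with 837 higher, which the threshold lowers by construction. The other clock genes kept 2 calls throughout, and the flowering list had 3 (with the filter at 50 reads) to 6 (with TMM factors squared), against 4. Of the members' neighbours 8 were called, 4 without the filter and 3 in DESeq2. For the other settings no cause was tested. With 1 library left out, 1791 to 2857 genes were called, 749 to 1237 higher and 1042 to 1620 lower, lowest without jmj1-1 replicate 1 (1791) and 2 (1969), and 5 to 7 neighbours, with fewer libraries to test and the lone library assumed to vary like the other genotype. PPD1 then ranged from -0.41 to -0.34, PRR73 from -0.068 to -0.0099, PRR95 from 0.28 to 0.44 and TOC1 from -0.14 to -0.041. TMM factors squared gave 28.1% of calls as higher. With the replicate block 3141 genes were called and every member kept its call or lack of one (PPD1 -0.38, PRR95 0.37). Nothing in the labels pairs the libraries, and same-numbered libraries deviated with r = -0.016 across genes. The older quasi-likelihood method, chosen after seeing the data, gave 2956 calls. What could be detected is limited to about the intervals given. Their width reflects the spread fitted with 2 libraries per line as well as the members' 655 to 2711 reads per library.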
